A study of Mus musculus with 6 samples.

Results

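Genes of Wnt signalling were followed through 6 RNA-seq libraries of RM1 cells, a mouse prostate cancer line of C57BL/6 origin. The members are the Wnt ligands, Frizzled receptors, co-receptors, secreted antagonists, R-spondins with their Lgr receptors, and the main intracellular transducers and TCF/LEF factors. They were selected by gene symbol alone, which gave 55 genes of the 23791 named entries in the count table. Bone stands for 1 library of RM1536 cells recovered from the femur, and lung for 1 library of RM1536 cells recovered from the lung. Both came from 1 mouse, 16 days after cells stained with the dye PKH26 were injected into the heart, and only cells negative for the dye, described as proliferating, were taken. RM1536 stands for 2 libraries (replicates a and b) of cultured RM1 carrying eCFP and luc2, a pool of labelled clones, and RM1 for 2 libraries (a and b) of the unlabelled line in culture. Cells of all 4 groups were sorted and then grown in DMEM with 5% FBS to a flask confluency of 85%. Bone and lung therefore describe cells that had been back in culture before RNA was taken.

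Wnt proteins are lipid-modified secreted ligands that bind a Frizzled receptor together with a co-receptor. With Lrp5 or Lrp6 as co-receptor, the signal stops a complex built on Axin and Apc from marking beta-catenin for destruction, and beta-catenin then works with TCF/LEF factors on DNA. With Ror receptors, ligands such as Wnt5a act largely without beta-catenin. Dkk proteins, secreted Frizzled-related proteins, Wif1 and Notum restrain signalling outside the cell, R-spondins strengthen it through Lgr receptors, and in prostate cancer metastasis to bone the pathway is studied for its part in exchanges between tumour cells and osteoblasts.

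The count table held between 22763835 (bone) and 30303566 (RM1536 b) reads per library. The limit that a count of 0 allows, 3 reads, corresponded to 0.099 to 0.132 CPM. CPM is here a gene's reads as a share of all counted reads of the library, scaled to parts-per-million. CPM values of single genes below also carry the scaling between libraries described under processing. The luminal keratin genes Krt8 (27297 to 53888 reads) and Krt18 (8179 to 11395 reads) were expressed in every library, while the basal keratin gene Krt5 had 0 reads in all 6, and Cdh1, which codes for E-cadherin, had 2 to 11 reads. Markers of host cells were uneven: some were near 0 in all libraries, namely Ptprc (leukocytes, at most 2 reads), Emcn (endothelium, 0), Sftpc (lung epithelium, at most 1), Thy1 (fibroblasts, at most 1) and Sp7 (osteoblasts, at most 2), while others on the same lists had many reads. Cd68 reached 1230 reads, Runx2 1811, Pdgfrb 1839, Dcn 1438 and Col3a1 41232, each of them in a culture library. Other listed markers were highest in bone or lung. Ctsk had 143 reads in bone and 333 in lung, against 57 and 19 in RM1536 and 2 and 2 in RM1. Vwf had 124 reads in lung against 4 to 28 elsewhere. Hopx had 185 in bone and 97 in lung, against 14 to 76 in culture. The 14 leukocyte markers summed to 24.2 CPM in bone, 24.5 in lung, 17.8 and 5.84 in RM1536 and 22.9 and 60.8 in RM1, led by Cd68. The 6 lung epithelium markers summed to 9.23 CPM in bone, 5.39 in lung, 4.16 and 2.64 in RM1536 and 1.39 and 1.63 in RM1. Erythroid markers stayed below 0.75 CPM. Endothelial markers summed to 11.7 CPM in bone, 10.4 in lung, 8.27 and 4.03 in RM1536 and 3.71 and 4.83 in RM1. Osteoblast and osteoclast markers summed to 86.6 CPM in bone, 79.5 in lung, 55.5 and 61.2 in RM1536 and 72.2 and 57.8 in RM1. The latter were led by Runx2. The 9 fibroblast markers summed to 959 CPM in bone, 1030 in lung, 883 and 1160 in RM1536 and 1400 and 646 in RM1, led by Col3a1 except in lung, where Col1a1 had 15301 reads against 18 in bone and 220 to 858 in culture. The part of these genes in the differences below was not tested.

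Upstream sequence is shown for Dkk2 and Ror2, which had the largest increases in RM1536 among the 4 called members, to let the start regions of both genes be compared. Each is the 250 bases before the RefSeq gene start (GRCm38.p6), with matches to TATAAA on either strand in capitals; the window for Dkk2 is chr3:132085042-132085291 on the plus strand and that for Ror2 is chr13:53286125-53286374 on the minus strand.
Dkk2: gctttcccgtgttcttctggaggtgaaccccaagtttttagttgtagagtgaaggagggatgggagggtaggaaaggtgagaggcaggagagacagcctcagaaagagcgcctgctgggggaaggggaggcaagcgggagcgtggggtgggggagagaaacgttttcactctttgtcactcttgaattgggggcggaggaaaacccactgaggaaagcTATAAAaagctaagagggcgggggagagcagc
Ror2: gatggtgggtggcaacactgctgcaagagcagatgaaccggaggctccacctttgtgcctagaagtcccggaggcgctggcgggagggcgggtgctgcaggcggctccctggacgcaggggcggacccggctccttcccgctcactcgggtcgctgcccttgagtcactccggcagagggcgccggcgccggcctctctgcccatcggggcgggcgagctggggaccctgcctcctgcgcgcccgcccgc
The Dkk2 window has 1 TATAAA, which begins 32 bases before the start, on the gene's own strand, while the Ror2 window has none; 12.4% of all 32851 such RefSeq windows hold this motif. Ror2 has 73.2% G and C with 24 CG pairs, and Dkk2 55.6% with 7, against medians of 52.4% and 6 over all windows. Neither window holds the TCF/LEF core CTTTGNT on either strand, a motif found in 16% of all windows and in 6 of the 45 windows listed for 36 members (13.3%).

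Of the 55 members, 35 were detected, meaning that at least 1 library had 10 or more reads. All 9 Frizzled genes and all 8 transducers and factors were detected, with 8 of 16 ligands, 4 of 6 co-receptors and partner receptors, 4 of 7 R-spondin and Lgr genes and 2 of 9 antagonists. The 20 members below this level were Wnt2, Wnt3, Wnt4, Wnt6, Wnt7a, Wnt8b, Wnt9b, Wnt16, Ror1, Kremen2, Dkk1, Dkk3, Dkkl1, Sfrp1, Sfrp4, Sfrp5, Wif1, Rspo1, Rspo3 and Lgr5. Among these, Dkk1, Wif1, Wnt8b, Kremen2 and Rspo1 had 0 reads in all 6 libraries, and the other 15 had at most 9 reads in any. Ror1, a receptor related to Ror2, was the one with 9 reads, in bone, against 2 in lung, 1 and 1 in RM1536 and 0 and 0 in RM1. The 35 detected members were the same 35 that passed the low-count filter of the test. Of them, 24 had 10 or more reads in every library. The other 11 (Wnt2b, Wnt5b, Wnt10a, Wnt10b, Wnt11, Fzd3, Fzd9, Rspo2, Rspo4, Axin2 and Lef1) passed through the libraries in which they were high, so shares of the 35 are given as an account and not as support.

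**Figure D1:**
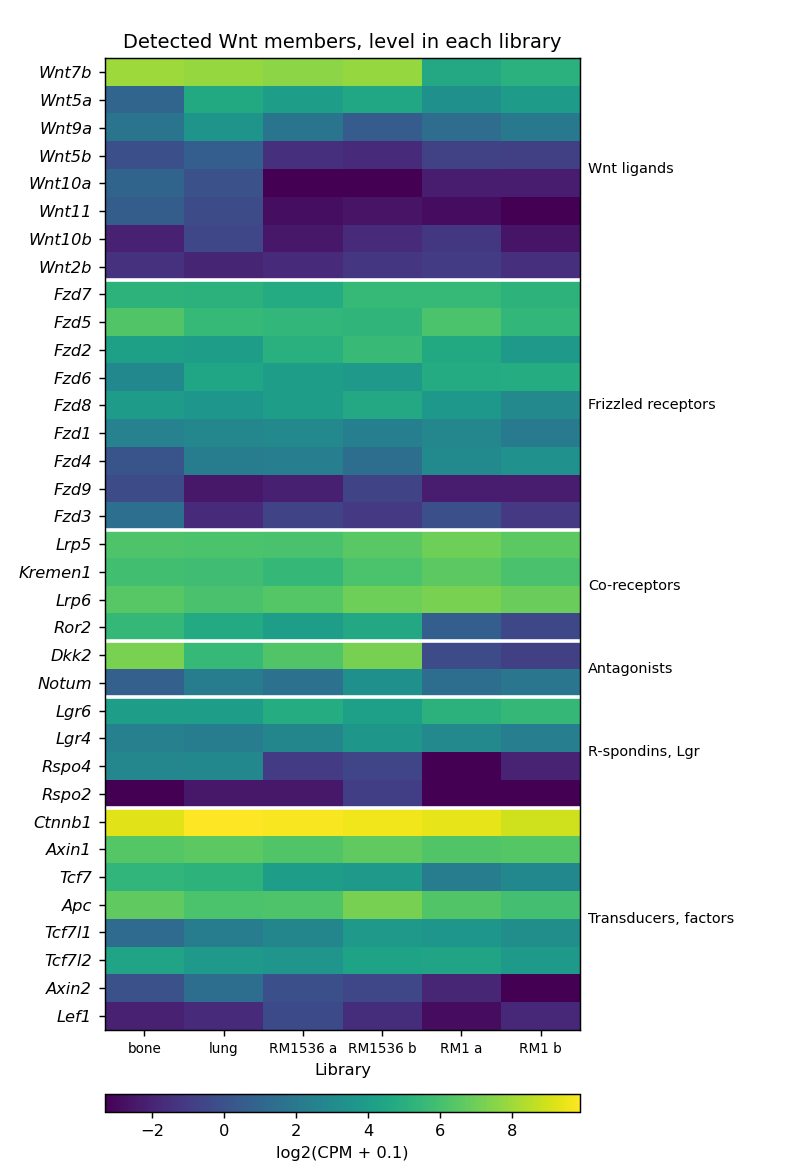
Level of the 35 detected members in each library, as log2(CPM + 0.1), with rows grouped by role and ordered within a role by level per kilobase. Ctnnb1 is the brightest row in all 6 libraries, and Wnt7b, Dkk2 and Ror2 are darker in both RM1 libraries than in the other 4.

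Levels were compared between genes as CPM per kilobase of exon, averaged over the 6 libraries. Ctnnb1, which codes for beta-catenin, was the most abundant member at 140 CPM per kilobase. It was followed by the ligand Wnt7b at 32 and by Axin1, the scaffold of the destruction complex, at 22.8. In RM1 that order was turned, with 5.2 and 6.98 CPM per kilobase for Wnt7b against 20.8 and 22.5 for Axin1. The antagonist Dkk2 came next at 19.1 CPM per kilobase, although it was below 1 CPM in both RM1 libraries. Lrp5 (8.97), Kremen1 (8.52), Fzd7 (8.47), Tcf7 (7.73), Fzd5 (7.70) and Lrp6 (7.67) came next by this average. Of these, Tcf7 varied most between groups, with 15.9 CPM per kilobase in bone and 1.82 in RM1 a. Lgr6 led the R-spondin and Lgr genes at 3.88. The cells thus carried transcripts for both Lrp co-receptors, several Frizzled receptors and the destruction complex in every library, with Wnt7b the highest ligand on average: the second ligand, Wnt5a, averaged 1.98 CPM per kilobase and the third, Wnt9a, 1.30.

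RM1536 was compared with RM1 to see how the labelled pool differs from the unlabelled line. In RM1536, 4 members rose and none fell at an adjusted p of 0.05 (edgeR quasi-likelihood test, Benjamini-Hochberg adjustment over 13832 genes): Dkk2, Wnt7b, Ror2 and Tcf7. Over all genes tested, 2.1% rose and 3.54% fell, 5.64% in all. At an unadjusted p under 0.05 there were 9 members higher and 4 lower, against 10.4% and 12.5% of all genes tested (23% in all). The median log2 fold change was 0.19 over the 35 members and 0.02 over all genes tested. In bulk RNA, fewer cells expressing a gene and less of its RNA per cell cannot be told apart, which bears on the pooled clones of RM1536. The labels do not say whether replicates a and b are separate cultures, so p values cover only the spread between these libraries.

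Among the ligands, Wnt7b, a ligand mostly linked to beta-catenin signalling, had 194 and 221 CPM in RM1536, against 25.5 and 34.2 in RM1. The groups were far apart and the duplicates close together. Its log2 fold change was 2.80 ± 0.25 (SE, n = 2 and 2; edgeR adjusted p = 0.00871). Bone (244 CPM) and lung (223 CPM) stood near RM1536. The remaining detected ligands did not pass: Wnt5a, the classic ligand of Ror2, had 16.8 and 23.3 CPM in RM1536 against 9.72 and 15.3 in RM1 (log2 fold change 0.68 ± 0.32, edgeR adjusted p = 0.274), and Wnt2b, Wnt5b, Wnt9a, Wnt10a, Wnt10b and Wnt11 stayed below 4 CPM in all 4 culture libraries.

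Among receptors, Ror2, a receptor tyrosine kinase that binds Wnt5a, had 17.1 and 25.3 CPM in RM1536, against 1.44 and 0.637 in RM1. The lower RM1536 library exceeded the higher RM1 library more than 10-fold. Its log2 fold change was 4.34 ± 0.45 (n = 2 and 2, edgeR adjusted p = 0.0116), and it stood at 44.1 CPM in bone and 26.6 in lung. The Lrp and Frizzled genes did not pass. Lrp5 had 68.4 and 91.7 CPM in RM1536 against 125 and 93.0 in RM1 (log2 fold change -0.44 ± 0.25, edgeR adjusted p = 0.358), and Fzd7 had 27.6 and 46.4 against 46.9 and 37.0 (-0.18 ± 0.30, edgeR adjusted p = 0.775; 0.12 without RM1536 a). The Frizzled gene with the smallest p was Fzd6, at 17.1 and 13.9 CPM in RM1536 against 27.6 and 28.6 in RM1. Its log2 fold change was -0.86 ± 0.23 (edgeR adjusted p = 0.0923, DESeq2 0.0391). Fzd2, by contrast, had 33.8 and 50.4 CPM in RM1536 against 25.7 and 13.4 in RM1 (1.11 ± 0.38, edgeR adjusted p = 0.157), and Fzd4 had 4.91 and 2.59 against 7.78 and 10.1 (-1.26 ± 0.42, edgeR adjusted p = 0.148). The 2 groups did not overlap for Fzd6, Fzd2 or Fzd4. Nor did they for Fzd8 (16.5 and 24.9 CPM in RM1536 against 12.9 and 7.4 in RM1) or Fzd9 (0.121 and 0.55 against 0.1 and 0.106). The share of all genes without overlap was not counted, so this is a description only. Lgr6, a receptor for R-spondins, had 28.5 and 17.5 CPM in RM1536 against 35.4 and 44.9 in RM1 (-0.80 ± 0.30, edgeR adjusted p = 0.189), and 16.7 in bone and 16.4 in lung.

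Among secreted antagonists, Dkk2, which binds Lrp5 and Lrp6 and can dampen or, in some settings, promote signalling, had 78.6 and 144 CPM in RM1536, against 0.735 and 0.460 in RM1 (22 and 13 reads). This was the largest increase among the members, with a log2 fold change of 7.53 ± 0.48 (n = 2 and 2, edgeR adjusted p = 0.00576). Dkk2 was also high in bone (153 CPM) and, at a lower level, in lung (46.6 CPM). Notum, an enzyme that removes the lipid from Wnt proteins, did not pass: it had 3.02 and 9.68 CPM in RM1536 and 2.67 and 3.54 in RM1, so that RM1536 a lay between the RM1 values. Kremen1, a receptor that Dkk proteins use to remove Lrp5 and Lrp6 from the surface, had 44.9 and 71.8 CPM in RM1536, against 93.4 and 69.2 in RM1 (log2 fold change -0.48, edgeR adjusted p = 0.396).

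Among nuclear factors, Tcf7, which codes for TCF1, had 17.1 and 14.2 CPM in RM1536, against 4.78 and 7.08 in RM1. Its log2 fold change was 1.40 ± 0.28 (n = 2 and 2, edgeR adjusted p = 0.0477), close to the threshold. It missed the threshold without RM1 a (1.11, edgeR adjusted p = 0.160), RM1 b (0.0561), RM1536 a (0.140) or RM1536 b (0.119). Dkk2, Wnt7b and Ror2 were called without any 1 of these libraries. The other TCF/LEF genes did not pass. Tcf7l1 and Tcf7l2 had log2 fold changes of -0.06 and -0.14, and Lef1 had 17 and 7 reads in RM1536 against 1 and 5 in RM1. Ctnnb1 had 860 and 773 CPM in RM1536, against 671 and 485 in RM1 (log2 fold change 0.50 ± 0.24, edgeR adjusted p = 0.284), and 628 in bone and 950 in lung. Axin1 varied little, with 84.0 CPM in bone, 94.4 in lung, 79.1 and 101 in RM1536 and 79.8 and 86.0 in RM1. Axin2, which is transcribed in response to beta-catenin in many tissues and so often serves as a readout of the pathway, was scarce: it had 21 and 19 reads in RM1536, against 5 and 0 in RM1. The difference did not pass (log2 fold change 3.03 ± 0.99, edgeR adjusted p = 0.144).

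**Figure D2:**
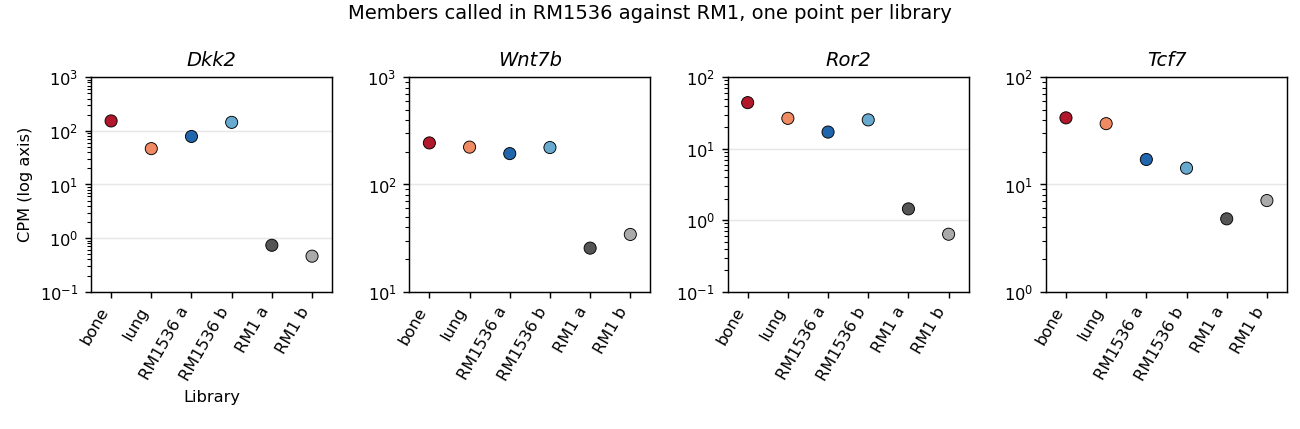
CPM on a log axis of the 4 members called in RM1536 against RM1, with 1 point per library. The bone, lung and RM1536 libraries lie above both RM1 libraries in each panel, and the gap is widest for Dkk2, from 46.6 CPM in lung down to 0.735 CPM in RM1 a.

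**Figure D3:**
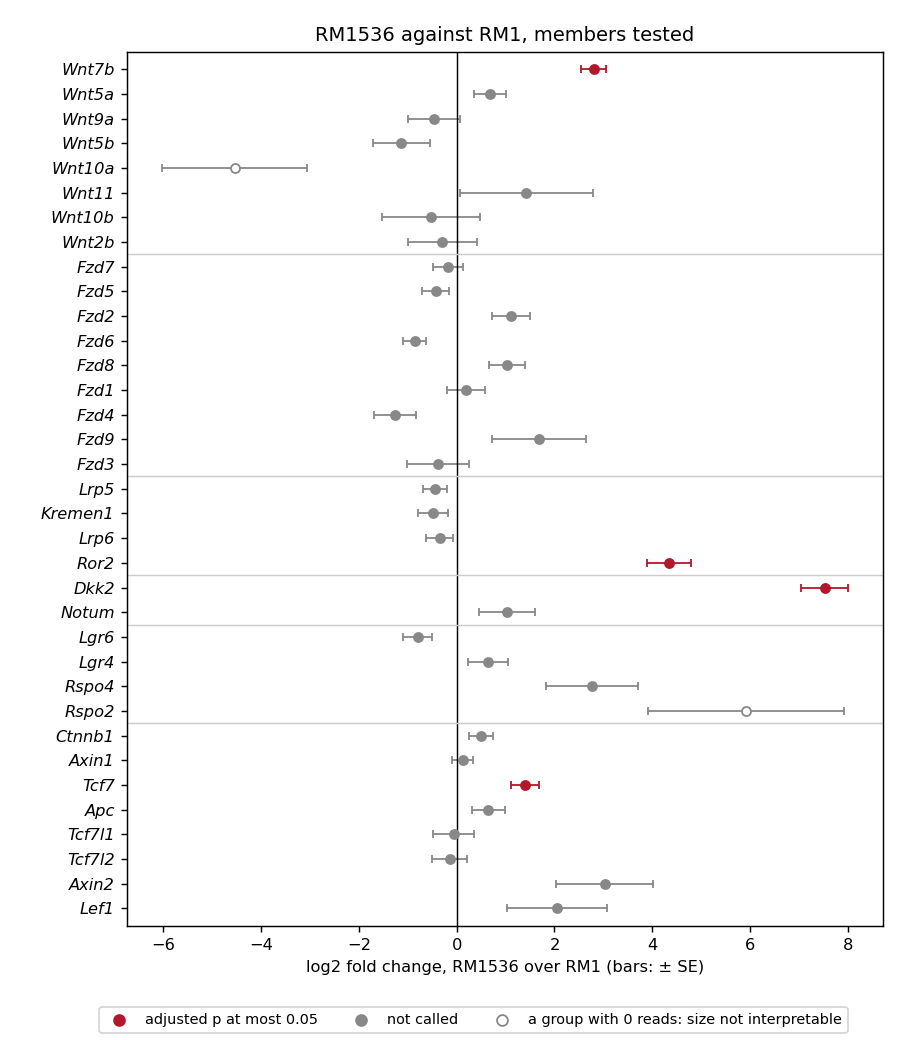
Log2 fold change of the 35 tested members in RM1536 over RM1, with bars of ± SE and lines between roles. Dkk2, Ror2, Wnt7b and Tcf7 are red (adjusted p at most 0.05), and open circles mark Wnt10a and Rspo2, which had 0 reads in all libraries of 1 group.

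By a plain 2-fold rule, both RM1536 libraries were at least 2-fold above both RM1 libraries for 7 members, the 4 called ones with Axin2, Rspo2 and Rspo4, and at least 2-fold below for Wnt10a alone; 4.4% and 6.15% of all genes tested met these rules. Without RM1536 a, 4 members were lower, and without RM1 a or RM1 b, 2 were. The 4 added members rest on few reads. Rspo4 had 10 and 18 reads in RM1536 against 0 and 4 in RM1, a ratio of 7.31 (exact 95% counting interval 2.56 to 28.7), Rspo2 had 2 and 14 against 0 and 0, and Wnt10a had 0 and 0 against 3 and 3.

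The bone library was set against RM1536 to see what distinguishes cells recovered from the femur. No member was called by edgeR, where 0.0145% of all genes tested were called in either direction. At an unadjusted p under 0.05 there were 13 members, 7 higher and 6 lower in bone, against 5.18% and 4.74% of all genes tested (9.92% in all). DESeq2 called 5 members (Wnt5a, Rspo4, Wnt10a, Tcf7 and Tcf7l1), against 1.68% of the genes it tested. By the 2-fold rule against both RM1536 libraries, 6 members were higher in bone (Fzd3, Rspo4, Tcf7, Wnt5b, Wnt10a and Wnt11) and 4 lower (Fzd4, Rspo2, Tcf7l1 and Wnt5a), against 4.85% and 5.15% of all genes tested; without RM1536 a, 7 were lower. The bone library has no replicate and was assumed to vary like the culture duplicates. DESeq2 shares here and below are over 22081 genes, without the low-count filter that left 13832 for edgeR. A DESeq2 share over those 13832 was not counted, so the shares of the 2 tests have unlike bases.

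Wnt5a gave the smallest p in bone. It had 1.89 CPM in bone (43 reads), against 16.8 and 23.3 in RM1536. Lung had 26.0 CPM, and RM1 had 9.72 and 15.3 CPM. Bone was thus below each of the other 5 libraries. The log2 fold change against RM1536 was -3.41 ± 0.48 (n = 1 and 2, edgeR adjusted p = 0.0843; DESeq2 4.75e-08). It passed in edgeR without RM1 b (0.0289), a library that enters this comparison only through the estimate of the spread. Ror2, the receptor for this ligand, had 44.1 CPM in bone, against 17.1 and 25.3 in RM1536 (log2 fold change 1.05, edgeR adjusted p = 0.523), so ligand and receptor stood on opposite sides of the RM1536 values.

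Frizzled genes also differed in bone without passing. Fzd3, a receptor best known from axon guidance and planar polarity, had 2.72 CPM in bone, against 0.563 and 0.356 in RM1536 (log2 fold change 2.57 ± 0.70, edgeR adjusted p = 0.291). Fzd4, the receptor for norrin in blood vessels of the eye, had 0.966 CPM in bone, against 4.91 and 2.59 in RM1536 (-1.95 ± 0.59, edgeR adjusted p = 0.334). Bone lay outside both RM1536 values in each case. Tcf7l1, which codes for TCF3, a factor that mostly represses, had 2.37 CPM in bone, against 6.64 and 13.9 in RM1536 (-2.11 ± 0.59, edgeR adjusted p = 0.295). Notum had 1.54 CPM in bone, against 3.02 and 9.68 in RM1536, whose duplicates themselves differed more than 2-fold.

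The lung library was set against RM1536 in the same way, and the bone and lung comparisons share the RM1536 libraries. edgeR called no member in lung and no gene at all (0%). At an unadjusted p under 0.05 there were 6 members higher and 2 lower in lung, against 6.46% and 7.29% of all genes tested (13.8% in all). DESeq2 called Rspo4 and Wnt10a, against 1.63% of the genes it tested. By the 2-fold rule, 8 members were higher in lung (Axin2, Rspo4, Tcf7, Wnt5b, Wnt9a, Wnt10a, Wnt10b and Wnt11) and none lower, against 5.68% and 6.64% of all genes tested. The count of lower members was 9 without RM1536 a and 2 without RM1536 b.

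Wnt9a, a ligand with roles in joint and blood stem cell development, had 11.5 CPM in lung (292 reads), against 3.38 and 1.33 in RM1536, 2.51 and 3.93 in RM1 and 3.25 in bone. Lung was above every other library, but the difference did not pass (log2 fold change 2.30 ± 0.61, n = 1 and 2, edgeR adjusted p = 0.303). Axin2 had 67 reads in lung, against 21 and 19 in RM1536 (log2 fold change 1.86, edgeR adjusted p = 0.409); it stood at 20 reads in bone. Dkk2 had 46.6 CPM in lung, against 78.6 and 144 in RM1536 (log2 fold change -1.26 ± 0.44, edgeR adjusted p = 0.333), and so remained far above the RM1 level of less than 1 CPM.

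Several ligands and the R-spondin gene Rspo4 had few reads in RM1536 and more in both bone and lung. Rspo4, a secreted agonist needed for nail growth, had 6.76 CPM in bone (154 reads) and 7.03 in lung (178 reads), against 0.402 and 0.583 in RM1536 (10 and 18 reads) and 0 and 0.142 in RM1 (0 and 4 reads). Its log2 fold change against RM1536 was 3.76 ± 0.78 in bone (n = 1 and 2, edgeR adjusted p = 0.173; DESeq2 0.00233). In lung the log2 fold change was 3.81 ± 0.78 (edgeR adjusted p = 0.279; DESeq2 0.00290). Wnt10a, a ligand of skin appendages and teeth, had 42 reads in bone and 22 in lung, against 0 and 0 in RM1536 and 3 and 3 in RM1. Taking 3 reads over both RM1536 libraries as the limit, it was at least 34.3-fold higher in bone and at least 16.1-fold higher in lung. These bounds take the 42 and 22 reads as they stand and leave out their counting error. Wnt10a and Wnt11 reached 10 reads in bone and lung alone and so passed the low-count filter through those libraries. Their values are a description. Both are among the members counted above at an unadjusted p under 0.05 in bone and in lung. Wnt10a is also among the DESeq2 calls there, so those counts are given as an account and not as support.

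Wnt11, a ligand acting mostly without beta-catenin, had 32 reads in bone and 18 in lung, against 1 and 2 in RM1536 and 1 and 0 in RM1. The ratio to RM1536 was 26.1 in bone (exact 95% counting interval 8.17 to 133) and 13.2 in lung (3.85 to 70). Wnt5b, a relative of Wnt5a, had 19 reads in bone and 36 in lung, against 6 and 6 in RM1536 and 15 and 13 in RM1; the ratios to RM1536 were 3.88 (1.79 to 8.76) in bone and 6.60 (3.36 to 13.9) in lung. Tcf7 had 41.8 CPM in bone and 36.9 in lung, against 17.1 and 14.2 in RM1536 and 4.78 and 7.08 in RM1. Its log2 fold change against RM1536 was 1.42 ± 0.32 in bone (edgeR adjusted p = 0.205; DESeq2 0.0339) and 1.24 ± 0.32 in lung (edgeR adjusted p = 0.303).

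**Figure D4:**
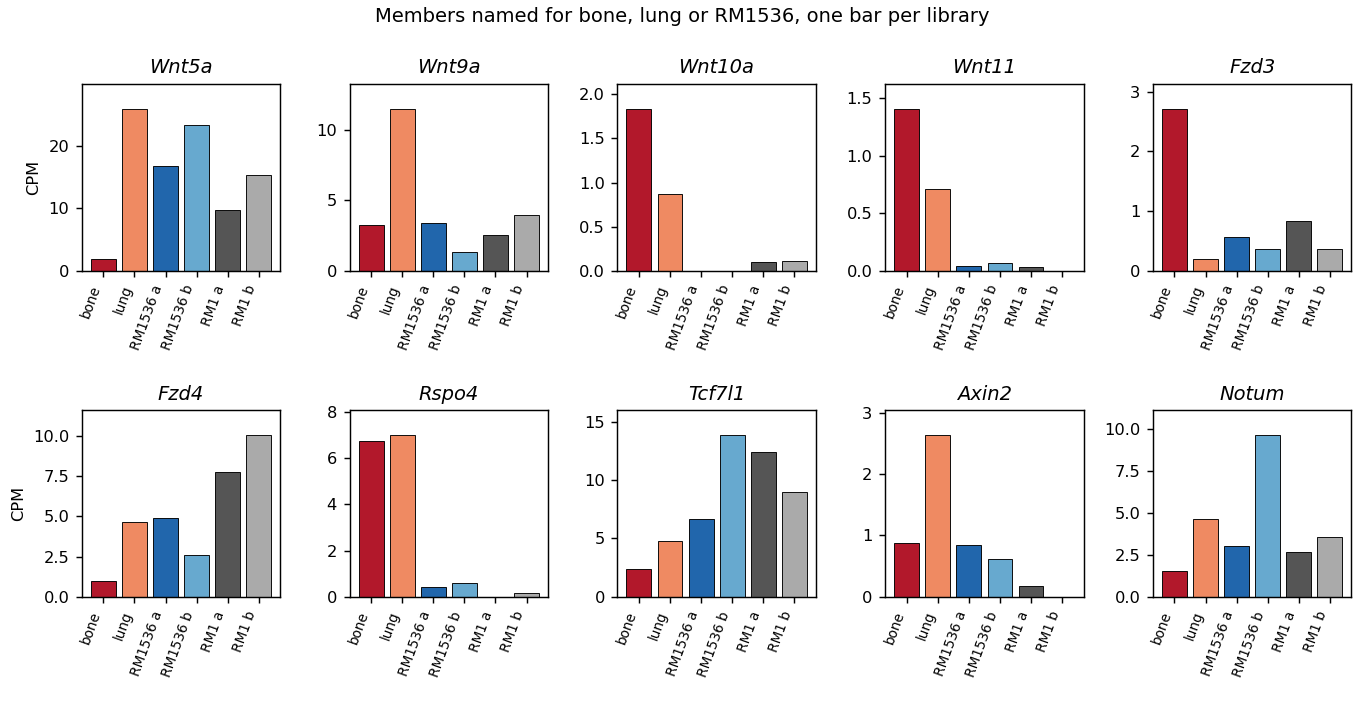
CPM of 10 members in each library on linear axes from 0, with 1 bar per library. Rspo4, Wnt10a and Wnt11 are tall in bone and lung only, Wnt5a is short in bone (1.89 CPM) next to 26.0 CPM in lung, and Wnt9a and Axin2 are tallest in lung.

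Bone was finally compared with lung, 2 single libraries from 1 mouse. No member was called by edgeR, where 0.00723% of all genes tested were called in either direction. There were 2 members higher and 3 lower in bone at an unadjusted p under 0.05, against 3.78% and 4.68% of all genes tested (8.47% in all). DESeq2 called Wnt5a and Fzd6, against 0.987% of the genes it tested. By the 2-fold rule, Dkk2, Fzd3, Fzd9 and Wnt10a were higher in bone and 9 members were lower (Axin2, Fzd4, Fzd6, Notum, Rspo2, Tcf7l1, Wnt5a, Wnt9a and Wnt10b), against 9.46% and 9.72% of all genes tested.

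Wnt5a had 43 reads in bone against 658 in lung, a log2 fold change of -3.78 ± 0.52 (n = 1 and 1, edgeR adjusted p = 0.165; DESeq2 1.50e-07; edgeR 0.0487 without RM1 b). Fzd6 had 7.07 CPM in bone against 21.8 in lung (-1.62 ± 0.33, edgeR adjusted p = 0.316; DESeq2 0.0167). Fzd4 had 0.966 CPM in bone against 4.66 in lung (-2.26 ± 0.64, edgeR adjusted p = 0.453). For these 3 members bone was the lowest of all 6 libraries. In the other direction, Fzd3 had 62 reads in bone against 5 in lung, a ratio of 13.8 (exact 95% counting interval 5.6 to 44; edgeR adjusted p = 0.422). Dkk2 had 153 CPM in bone against 46.6 in lung (1.72 ± 0.49, edgeR adjusted p = 0.460), with the RM1536 duplicates between the sites. Col1a1, the fibroblast and osteoblast collagen gene, also differed between these 2 libraries, while Col1a2, its usual partner, had 3 reads in bone against 7 in lung; the part of such cells in these differences was not tested.

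Other genes of the pathway were taken from a list of 96 symbols, of which 86 were in the table and 70 were tested. In RM1536 against RM1, Celsr3 rose and no listed gene fell; 22 had an unadjusted p under 0.05, 15 higher and 7 lower, and DESeq2 called 6. Over the 13832 genes tested these shares were 5.64% for edgeR calls and 23% for an unadjusted p under 0.05. DESeq2 called 6.64% of its 22081 genes, a wider base without the low-count filter that the 70 passed. Celsr3, an adhesion receptor of planar polarity, had 1.77 and 2.23 CPM in RM1536, against 0.1 and 0.106 in RM1, and 0.0878 in bone and 0.118 in lung. It reached 10 reads in RM1536 alone (44 and 69) and so passed the low-count filter through that group. Its call is given as an account and not as support. Its log2 fold change was 4.22 ± 0.60 (n = 2 and 2, edgeR adjusted p = 0.0200), and it missed the threshold without any 1 of the 4 culture libraries, at 0.0524 to 0.0885. In bone against RM1536, in lung against RM1536 and in bone against lung edgeR called none of the 70, with 14, 12 and 9 at an unadjusted p under 0.05 and 7, 5 and 4 called by DESeq2. The shares were 9.92%, 13.8% and 8.47% of the 13832 genes at an unadjusted p under 0.05. For DESeq2 they were 1.68%, 1.63% and 0.987% of its 22081 genes. Medians over the 70 were 0.18 in RM1536 against RM1 and -0.07, 0.03 and -0.27 in these 3 comparisons, against 0.02, -0.03, -0.03 and 0.02 over all genes tested.

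The list held 12 tested genes widely reported to be transcribed in response to beta-catenin. Their median log2 fold change was 0.68 in RM1536 against RM1, -0.56 in bone against RM1536 and 0.22 in lung against RM1536. In these comparisons edgeR called none, and DESeq2 called 1, 1 and 3, against 6.64%, 1.68% and 1.63% of the genes it tested. At an unadjusted p under 0.05 there were 6, 4 and 3, against 23%, 9.92% and 13.8% of all genes tested. In RM1536 against RM1, Wisp1, Mmp7, Bmp4, Bambi and Wisp2 were higher and Tnfrsf19 lower. In bone, Wisp1, Myc and Bambi were lower and Fosl1 higher, and in lung Wisp1, Myc and Fosl1 were higher. Mmp7 had 7 and 7 reads in RM1536 against 0 and 0 in RM1 and passed the low-count filter through bone (16 reads). These counts are an account and not support. In bone against lung, edgeR called none of the 12, and 2 had an unadjusted p under 0.05 (8.47% of all genes tested). There 4 had a positive and 8 a negative log2 fold change, and the median was -0.90. Ccnd1, Jun and Id2 had log2 fold changes of 0.03, -0.02 and 0.00. Cd44 had 843 CPM in bone against 603 in lung (log2 fold change 0.48), and Mmp7 had 0.703 against 0.316. Among the lower genes, Tnfrsf19 (1 read in bone and 5 in lung), Bambi (17 and 48) and Wisp2 (21 and 55) had few reads. Wisp1 and Myc were the 2 that DESeq2 called in bone against lung, where it called 0.987% of the genes it tested. They are described because of those calls, after their values were seen. Wisp1, a matricellular protein gene, had 6.46 CPM in bone against 118 in lung, with 27.9 and 29.9 in RM1536 and 7.98 and 19.0 in RM1. The log2 fold change of bone against lung was -4.20 ± 0.65 (n = 1 and 1, edgeR adjusted p = 0.216; DESeq2 2.07e-08; edgeR 0.0353 without RM1 b). Myc, the growth-promoting transcription factor gene, had 8.34 CPM in bone against 124 in lung, with 38.4 and 15.2 in RM1536 and 24.2 and 48.1 in RM1 (-3.89 ± 0.81, edgeR adjusted p = 0.321; DESeq2 1.72e-05). Bone was the lowest and lung the highest of the 6 libraries for both genes, as for Wnt5a. Axin2 had 20 reads in bone against 67 in lung.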

How the data were processed

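RNA was measured by sequencing in 6 libraries. The authors deposited raw counts per gene symbol. The submitters' processing notes name GRCm38, TopHat2 2.1.10, HTSeq and edgeR, without roles; the sources used here state neither annotation release nor strand setting or counting mode. Reads of a gene and of an antisense or overlapping gene can therefore not be told apart. Overlapping entries were looked up for members called, most abundant in a role, or with a 4-fold difference and at least 50 reads. Other members, Wnt10a, Wnt11 and Wnt5b among them, were not looked up. The deposited entries found had at most 14 reads in a library, apart from Ulk4 beside Ctnnb1 (86). An entry without a name (0.00626% to 0.0083% of the counts) was left out.

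The main test was the quasi-likelihood F test of edgeR 4.0.16 (R 4.3.3), with the 4 groups and all 6 libraries in a single model after TMM scaling. The filterByExpr rule kept 13832 genes. A call is a Benjamini-Hochberg adjusted p of at most 0.05 over them. The spread came from the 2 culture pairs (2 residual and 4.03 prior degrees of freedom, biological coefficient of variation 0.269), whose libraries differed beyond counting error (chi-square per degree of freedom 91.1 in RM1536 and 89.9 in RM1). CPM values are TMM-scaled, except marker sums, which use total counts. An SE is the log2 fold change over the square root of F. Exon lengths and positions are from GENCODE M21 (GRCm38), matched by symbol for all 55 members. Intervals and limits are exact and cover counting error only. The fit was tested on simulated data.

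Members named in full were those called in any comparison and the most abundant of each role; those with a 4-fold difference in group means and at least 50 reads in some library, and others with a small p or few reads, are given by values, the last chosen after values were seen. The members, lists and rules were chosen with earlier results of these data known. The 2-fold rule was added after seeing the data. DESeq2 1.42.0, its size factors in edgeR, 2 other low-count filters, leaving out each culture library and a replicate block were the alternatives. Protein sequences were not used here. Some markers of the tissue label are not reported here.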

Additional observations from a re-analysis of the deposited data

How the results depend on the processing

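Dkk2, Wnt7b and Ror2 were called in RM1536 against RM1 under every alternative run. Tcf7 and Celsr3 were not under the replicate block (adjusted p = 0.139 and 0.0616), nor Tcf7 under the stricter filter (0.0523). The count of members called in that comparison was 4, with 3 to 3 when 1 culture library was left out, 12 without a low-count filter and 5 with DESeq2; over all genes the counts were 780, 2394 without a filter and 1467 with DESeq2. Where edgeR called no member (bone and lung each against RM1536, then bone against lung), DESeq2 called 5, 2 and 2, and edgeR without a low-count filter called 10, 8 and 5. Over all genes edgeR called 2, 0 and 1, against 370, 359 and 218 with DESeq2 and 859, 1299 and 754 without a filter. With 1 culture library left out, members were called in these comparisons only without RM1 b. Over all genes, more were called in that fit too, in each of these comparisons. The other pathway genes called were 1, 0, 0 and 0 in the 4 comparisons, against 6, 7, 5 and 4 with DESeq2 and 17, 11, 9 and 7 without a filter; leaving out 1 library gave 0 to 1, 0 to 1, 0 to 0 and 0 to 1. The cause of these shifts was not tested. The single genes called with a library left out were Id2, Wisp1 or Bmp4, not Celsr3. DESeq2 size factors in edgeR left the counts of members and other pathway genes as they were.

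The letters a and b are shared by RM1 and RM1536, but no label says that they pair libraries. The deviations of same-lettered libraries from their group means correlated at -0.367 over 13832 genes. With the letter as a replicate block, 3 members (Dkk2, Wnt7b and Ror2) and 0 other pathway genes were called, and 250 of all genes. Crossed pairing, added after seeing the data, called 13 members, 25 other pathway genes and 3318 of all genes, against 780 without a block. Bone and lung have 1 library each, so no paired analysis of their comparisons was possible.

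By the 2-fold rule, members lower in RM1536 numbered 1 to 4 when 1 library was left out, those lower in bone 6 to 7, and those lower in lung 2 to 9; total-count scaling gave 1 lower in lung. Fzd7 in RM1536 against RM1 had a log2 fold change of -0.18, with -0.62 to 0.12 when 1 culture library was left out, and turned positive without RM1536 a. Detected members numbered 30 at 1 CPM in any library and 32 when every library of a group needed 10 reads. At the depths here, 10 reads correspond to 0.33 to 0.439 CPM, and 8 of 16 ligands and 7 of 9 antagonists stayed below 10 reads in every library.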

Other observations

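Among the 35 tested members, 7 differed at least 2-fold between RM1536 a and b (Fzd9, Lef1, Notum, Rspo2, Tcf7l1, Wnt9a and Wnt10b), against 13.8% of all genes tested. Between RM1 a and b there were also 7 (Axin2, Fzd3, Lef1, Ror2, Rspo4, Wnt10b and Wnt11), against 12.9%. Notum had 9.68 CPM in RM1536 b against 3.02 in RM1536 a. Apc, the scaffold gene whose loss starts many colon tumours, had 144 CPM in RM1536 b against 77.5 in RM1536 a.

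On the chromosomes, 3 pairs of members lie within 1 Mb of each other (GENCODE M21, GRCm38). Wnt6 and Wnt10a stand 6.19 kb apart on chromosome 1, and Wnt6 had 0 reads in bone and lung where Wnt10a had 42 and 22. Wnt9b and Wnt3 lie 24.3 kb apart on chromosome 11; Wnt9b had reads in RM1 alone (5 and 1), and Wnt3 had 0 in bone, 0 in lung, 1 and 0 in RM1536 and 3 and 6 in RM1. Lef1 and Dkk2 lie 861 kb apart on chromosome 3, and Lef1 had 17 and 7 reads in RM1536 where Dkk2 had 1953 and 4464.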
